A study of Homo sapiens with 2 samples.

Results

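The genes described here are 56 genes of DNA replication and the passage from G1 into S phase, from the D cyclins to the enzymes that seal new strands, of 19775 genes named on the array. A probe set was taken for one of them when its annotation named that gene symbol alone, which gave 115 probe sets, and 4 probe sets that also named another gene were left out. Of these probe sets 92 had a mean log2 signal above the median of all probe sets, a signal of about 83.0, and every one of the 56 genes had at least 1 of them. The brightest probe set stood for its gene.

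Both RNA samples were labelled LN229, a human glioblastoma cell line, from cells kept in DMEM with serum. The first held pSUPER.neo-miR-127-3p, a plasmid that drives a microRNA, and the control held pSUPER.neo alone, so the plasmid backbone was shared. The study asked which genes this microRNA regulates in glioblastoma cells. With 1 Affymetrix array per group, differences could not be checked in replicates and no test was possible. A log2 ratio is the miR-127-3p value minus the control value, after the median over 11985 genes above the filter was set to 0. Probe sets of the same gene differed with an SD of 0.41 per probe set over 5974 pairs, and of 0.24 over the 28 pairs from the genes described here. That spread holds no variation between cultures.

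The arrays stood apart in markers of cell type. Epithelial markers summed to a signal of 7816 with miR-127-3p against 93738 in control cells over 14 genes, 12 of them brighter in the control, and KRT19, a keratin of simple epithelia, read 5.64 with miR-127-3p against 12674 in control cells. CDKN2A, which encodes an inhibitor of the D cyclin kinases and is known as deleted in LN229, gave 37.9 with miR-127-3p, below the array median of 83.3, and 1587 in the control, where the median was 93.9. The control values go against the label of that library. VIM, a mesenchymal filament gene, was bright on both arrays at 48866 with miR-127-3p against 45584 in control cells, and GFAP, the astrocyte filament, was below the median on both at 14.9 and 34.2. The 12 glial and glioma markers summed to 112166 with miR-127-3p against 107161 in control cells, most of it from VIM, FN1 and CD44. S100B and OLIG2, also glial markers, were above the median on both arrays and differed by less than 2-fold. S100B read 4559 with miR-127-3p against 5865 in control cells, and OLIG2 read 201 against 192. Other single markers differed more. SLC1A3, an astrocyte glutamate transporter, read 2689 with miR-127-3p against 73.9 in control cells, at least 28.1-fold higher, and the neural progenitor genes SOX2 and NES were 2.37-fold and 2.04-fold lower. The 6 immune and endothelial markers summed to 503 with miR-127-3p against 467 in control cells. Every comparison below sets this pair of libraries against each other and none can be given without the control library. The identity of the cultures was not tested, nor was the part of the epithelial difference in any result.

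Replication begins in G1, when the origin recognition complex marks start sites and CDC6 and CDT1 load the ring-shaped MCM2-7 helicase there. Cyclin D with CDK4 or CDK6, and then cyclin E with CDK2, phosphorylate RB1 and release the E2F factors, which switch on many of the genes named here. In S phase CDC7 with DBF4, CDC45, MCM10 and the GINS complex turn the loaded helicase into a moving fork, and polymerases, the PCNA clamp and its RFC loader copy the strands. A microRNA such as miR-127-3p guides Argonaute proteins to messenger RNAs that pair with its seed, bases 2 to 8 from the 5′ end. The mature sequence is shown because it is the agent of the comparison, from RefSeq at chr14:100883035-100883056 on the plus strand of GRCh38.p14, with the seed in capitals.
hsa-miR-127-3p: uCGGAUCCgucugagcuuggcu
Matches to this seed in the messenger RNAs of the 56 genes were not analysed here.

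Replication genes were slightly lower as a group with miR-127-3p, and few by much. Of the 56 genes 5 were at least 2-fold lower, which is 8.93%, beside 8.67% of all 11985 genes, and none was at least 2-fold higher, beside 5.06% of all genes. The share at least 2-fold lower thus lay at the background. All 56 were above the median of each array, and among the 11183 genes of which that is true 6.05% were at least 2-fold lower, 4.21% at least 2-fold higher and 49.1% below 0. At least 1.5-fold lower were 15 of them, or 26.8%, beside 18.1% of all genes, and at least 1.5-fold higher was 1, or 1.79%, beside 14.5%. The median log2 ratio was -0.18, beside 0 for all genes, with quartiles of -0.60 and 0.08, beside quartiles of -0.41 and 0.37 over all genes. Ratios lay below 0 for 40 of 56, or 71.4%, beside 50.0% of all genes, and with arrays scaled on their 75th percentile for 32 of 56, or 57.1%, beside 43.8%. These shares are descriptions of a pair of arrays. Among brighter genes, above the 75th percentile of mean signal, 2 of 44 were at least 2-fold lower, or 4.55%, beside 4.95% of all 7824 such genes.

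**Figure D1:**
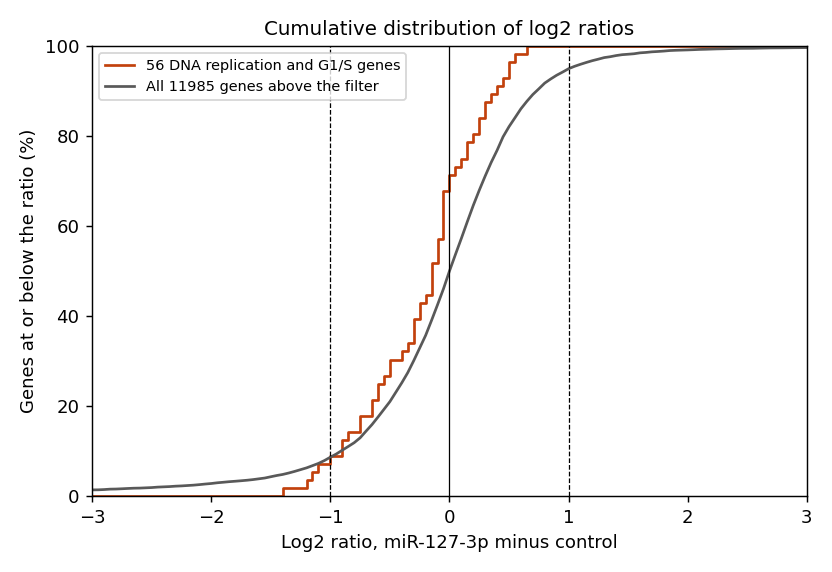
The share of genes (vertical axis, percent) at or below each log2 ratio (horizontal axis, miR-127-3p minus control) is drawn for the 56 DNA replication and G1/S genes and for all 11985 genes above the filter. The line of the 56 genes runs above the other through most of the centre, meets it near the 2-fold line on the left with 8.93% and 8.67% past that line, and reaches 100% below a ratio of 1.

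The 5 genes past 2-fold came from 4 different steps. POLE2, the second subunit of the leading-strand polymerase epsilon, read 227 with miR-127-3p against 615 in control cells and was 2.73-fold lower. MCM2, a subunit of the helicase ring, read 849.8 against 2001 and was 2.37-fold lower. MCM10, which helps to activate the helicase, read 268 with miR-127-3p against 602 in control cells, 2.26-fold lower, and its other 2 probe sets had log2 ratios of -0.76 and -0.81. POLA1, the catalytic subunit of the polymerase alpha that starts each new strand, read 373 against 815 and was 2.20-fold lower. CDC25A, the phosphatase that removes inhibitory phosphate from CDK2, read 236 with miR-127-3p against 484 in control cells, 2.06-fold lower. All 5 were dimmer on the miR-127-3p array and above the median on both arrays. POLE2, MCM2, POLA1 and CDC25A each had 1 probe set above the filter, so probe sets above it could not be compared within these genes. Below the filter CDC25A had further probe sets at log2 ratios of -0.26 and -1.06, with signals under the median of each array. CDC25A had a log2 ratio of -1.04 and came to -0.94 with quantile normalization, and MCM10 had one of -1.18 and came to -0.92 as the mean of its probe sets, so both lay on either side of 2-fold. Just short of 2-fold were MCM3 at -0.92 and CDC7 at -0.92.

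Because E2F factors act through promoters, the promoters of the 56 genes were searched for the core E2F words TTTCGCGC, TTTGGCGC, TTTCCCGC and TTTGCCGC on both strands. RefSeq promoters, 250 bases before to 50 bases after each gene's start on GRCh38.p14, were matched by symbol for 48 of the 56 genes, some with several starts. Of their 65 promoters 25 held a word, or 38.5%, beside 3.31% of all 35116 promoters in the table, and those 25 belong to 24 genes. Of the genes at least 2-fold lower POLE2, MCM2, POLA1 and CDC25A had a word and MCM10 had none in this window. The 30 bases around a word are shown for these 4 genes and for 4 genes with ratios near or above 0, all 5′ to 3′ on the gene's own strand, with the words in capitals. A word on the other strand reads as its reverse complement, and in MCM2 and MCM6 a word on each strand overlap, which makes a palindrome in MCM2 but not in MCM6, where the words differ.
POLE2, chr14:49688201-49688230, minus strand: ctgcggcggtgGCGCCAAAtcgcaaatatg
MCM2, chr3:127598404-127598433, plus strand: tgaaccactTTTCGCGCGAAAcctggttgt
POLA1, chrX:24693770-24693799, plus strand: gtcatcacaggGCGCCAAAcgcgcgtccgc
CDC25A, chr3:48188443-48188472, minus strand: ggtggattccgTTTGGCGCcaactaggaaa
MCM6, chr2:135876575-135876604, minus strand: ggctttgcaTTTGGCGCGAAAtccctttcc
E2F1, chr20:33686393-33686422, minus strand: tttcGCGGCAAAaaggaTTTGGCGCgtaaa
PCNA, chr20:5126663-5126692, minus strand: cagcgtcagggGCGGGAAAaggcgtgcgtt
ORC3, chr6:87590112-87590141, plus strand: cgcgagggcgcGCGGGAAAtcccgagtgca

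The longer stretch before the start is given for POLA1, at -1.14, and for MCM6, at 0.04, to set a gene past 2-fold beside a level one. Each runs over the 250 bases before the start.
POLA1, chrX:24693668-24693917, plus strand: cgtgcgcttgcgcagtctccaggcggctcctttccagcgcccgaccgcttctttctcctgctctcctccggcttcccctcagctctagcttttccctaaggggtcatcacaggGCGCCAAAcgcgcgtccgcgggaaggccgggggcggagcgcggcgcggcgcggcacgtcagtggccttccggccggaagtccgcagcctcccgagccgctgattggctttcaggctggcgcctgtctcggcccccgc
MCM6, chr2:135876444-135876693, minus strand: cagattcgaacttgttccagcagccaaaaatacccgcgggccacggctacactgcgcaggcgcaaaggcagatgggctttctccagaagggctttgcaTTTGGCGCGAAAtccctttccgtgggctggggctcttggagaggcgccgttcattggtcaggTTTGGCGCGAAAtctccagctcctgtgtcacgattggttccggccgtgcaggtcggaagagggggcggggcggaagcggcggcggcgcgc
The POLA1 promoter holds 1 word and the MCM6 promoter 4, as overlapping pairs at 2 places. The 24 genes with a word had a median log2 ratio of -0.18, from -1.45 to 0.32, and the 24 without one had -0.10, from -1.18 to 0.61. Over the other genes above the filter the medians were 0.03 for 635 genes with a word and 0.01 for 9136 without. A word in the promoter thus went with both the lowest ratios of the 56 and with ratios near 0. A match is a stretch of letters and not a measured binding site.

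Cyclins and kinases of the G1 to S passage differed in both directions and, CDC25A apart, by less than 2-fold. CCND1, cyclin D1, read 2995 with miR-127-3p against 2077 in control cells, a log2 ratio of 0.52, and its second probe set was at 0.25. CCND3, cyclin D3, read 1852 against 1362, and CDK4, a kinase partner of the D cyclins, read 10902 with miR-127-3p against 7751 in control cells, ratios of 0.43 and 0.48. CCND2, the remaining D cyclin, was dim and ran the other way at 83.9 with miR-127-3p against 132 in control cells, a ratio of -0.65. CDK6, the other kinase partner, read 3153 against 4031, a ratio of -0.37, and its 5 probe sets lay on both sides of 0, between -0.60 and 0.33. The brighter D cyclins and CDK4 were therefore on the higher side and CCND2 and CDK6 on the lower side at their chosen probe sets. Cyclins E showed next to no difference, with 571 and 587 for CCNE1 and 527 and 544 for CCNE2. CDK2, the kinase that cyclin E activates, read 1683 with miR-127-3p against 2009 in control cells, a ratio of -0.27. The median of these 9 genes was -0.06, and it was 0.03 when arrays were scaled on their 75th percentile, beside 0.08 for all genes.

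The activating E2F factors were nearly level between arrays, and RB1 was slightly higher with miR-127-3p. RB1, the pocket protein that holds E2F factors inactive, read 2452 with miR-127-3p against 1757 in control cells, a log2 ratio of 0.47. E2F1 read 209 against 190.1, E2F2 read 378 against 349, and E2F3 read 1310.4 with miR-127-3p against 1418 in control cells, with ratios of 0.13, 0.10 and -0.13. These E2F differences were below the probe set spread of 0.41. A second probe set of E2F1 was at -0.16, on the other side of 0.

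Origin recognition genes lay on both sides of 0. ORC2, ORC3, ORC4 and ORC5, subunits of the ring that binds origins, were all slightly brighter with miR-127-3p, with log2 ratios of 0.36, 0.32, 0.23 and 0.29. ORC2 read 1129 with miR-127-3p against 869 in control cells, and ORC5 read 1915 against 1556. The other probe sets above the filter of ORC2, ORC4 and ORC5 were also above 0, at 0.28, 0.17 and 0.47. ORC1, the subunit whose level follows the cell cycle in human cells, read 180.4 with miR-127-3p against 214 in control cells, a ratio of -0.26, and ORC6, the smallest subunit, read 1539.5 against 2219, a ratio of -0.54. At the brightest probe sets ORC6 alone differed by over 0.41, the spread of probe sets, and it and ORC1 have 1 probe set each.

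Helicase genes did not differ alike. Besides MCM2, MCM3 read 2007 with miR-127-3p against 3779.9 in control cells, a log2 ratio of -0.92, and MCM4 read 1421 against 2142, a ratio of -0.60, with all 4 probe sets below 0 from -1.04 to -0.45. Among the other subunits of the same ring MCM5 read 1412 with miR-127-3p against 1195 in control cells, a ratio of 0.23 with a second probe set at 0.47, MCM6 read 5053 against 4874 at 0.04, and MCM7 read 2412 against 2634 at -0.14. The 6 subunits work in equal numbers, yet their ratios spanned 1.48 on the log2 scale. The loading factor CDC6 read 482 with miR-127-3p against 561 in control cells, a ratio of -0.23, and CDT1, its partner in loading, read 339 against 421, a ratio of -0.32 with a second probe set at -0.88. The median over these 8 genes was -0.28.

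Genes of helicase activation were mostly on the lower side. Ratios were below 0 for 7 of 8, beside 71.4% of the 56 genes and 50.0% of all genes. The median was -0.47, and -0.17 with the 75th percentile filter, which leaves out MCM10, GINS3 and GINS4. With 75th percentile scaling DBF4 was above 0 at 0.05, beside a median of 0.08 for all genes. CDC7, the kinase that fires origins, read 686 with miR-127-3p against 1284 in control cells, a log2 ratio of -0.92, while DBF4, its activating subunit, read 1257 against 1278, a ratio of -0.03. Kinase and activator thus stood apart, each at 1 probe set. The probe set spread was taken within genes and does not measure a difference between genes. CDC45, which travels with the helicase, read 691 with miR-127-3p against 748 in control cells, a ratio of -0.13. The GINS subunits, which complete the active helicase, were at 0.08 for GINS1, -0.76 for GINS2, -0.19 for GINS3 and -0.85 for GINS4. GINS2 read 703 with miR-127-3p against 1179.6 in control cells, and GINS1 read 2326 against 2186. A second probe set of GINS3 was at -1.32, far from the first, and GINS4 was dim on both arrays at 93.4 and 168.

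**Figure D2:**
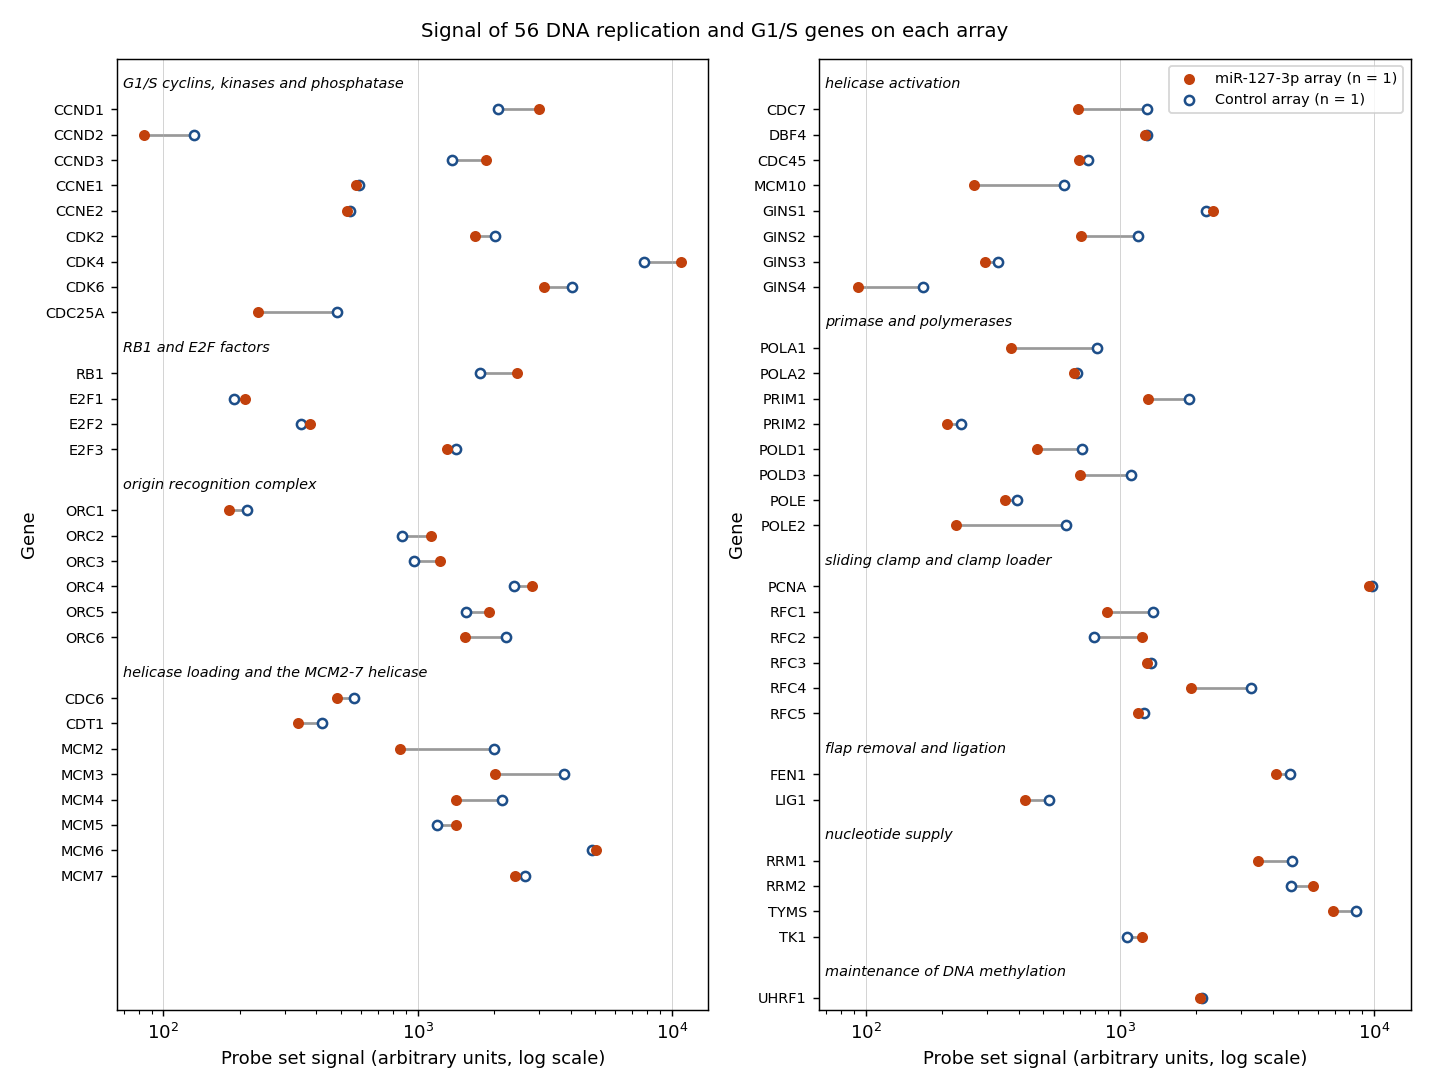
Signals of the brightest probe set of each of the 56 genes are drawn on a log scale (arbitrary units), with a filled point for the miR-127-3p array, an open point for the control array and a line joining them, grouped by replication step. The widest gaps are those of POLE2, MCM2, MCM10, POLA1 and CDC25A, with the miR-127-3p point on the left, and the miR-127-3p point lies to the right for 16 genes, among them CCND1, CDK4, RFC2 and ORC2 to ORC5.

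All 8 primase and polymerase genes had ratios below 0, beside 71.4% of the 56 genes and 50.0% of all genes. Their median was -0.57. With 75th percentile scaling POLA2 was above 0 at 0.03, beside a median of 0.08 for all genes. Within the complex that lays primers, POLA1 stood at -1.14 and its partner POLA2 read 658 with miR-127-3p against 676 in control cells, a log2 ratio of -0.05. PRIM1, the catalytic primase subunit, read 1289 against 1869.6, a ratio of -0.55, and PRIM2, the large primase subunit, was at -0.18. POLD1, the catalytic subunit of the lagging-strand polymerase delta, read 474 with miR-127-3p against 709 in control cells, a ratio of -0.59, and POLD3, an accessory subunit, read 696 against 1108, a ratio of -0.68. POLE, the catalytic subunit of polymerase epsilon, read 352 with miR-127-3p against 395 in control cells at -0.18, against -1.45 for POLE2 of the same enzyme. In polymerases alpha and epsilon the subunit past 2-fold thus had a partner that was close to level. The accessory subunits POLD2, POLD4, POLE3 and POLE4, which are not among the 56 and were picked here after their values were seen, had ratios of 0.27, 0.37, 0.45 and 0.31.

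The sliding clamp PCNA, which holds polymerases on DNA, was nearly equal at 9562 with miR-127-3p against 9825 in control cells. Its loader was uneven. RFC2 read 1219 with miR-127-3p against 794 in control cells, a log2 ratio of 0.61 that was the highest of the 56 genes, with a second probe set at 0.28. RFC4 read 1899.9 against 3267, a ratio of -0.79, and RFC1, the large subunit, read 893 against 1349, a ratio of -0.61 with a second probe set at -0.38. RFC3 was at -0.07 and -0.44 at its 2 probe sets, and RFC5 was at -0.08, -0.64 and -0.81 at its 3. The chosen probe set of RFC5 thus read closer to 0 than the others.

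**Figure D3:**
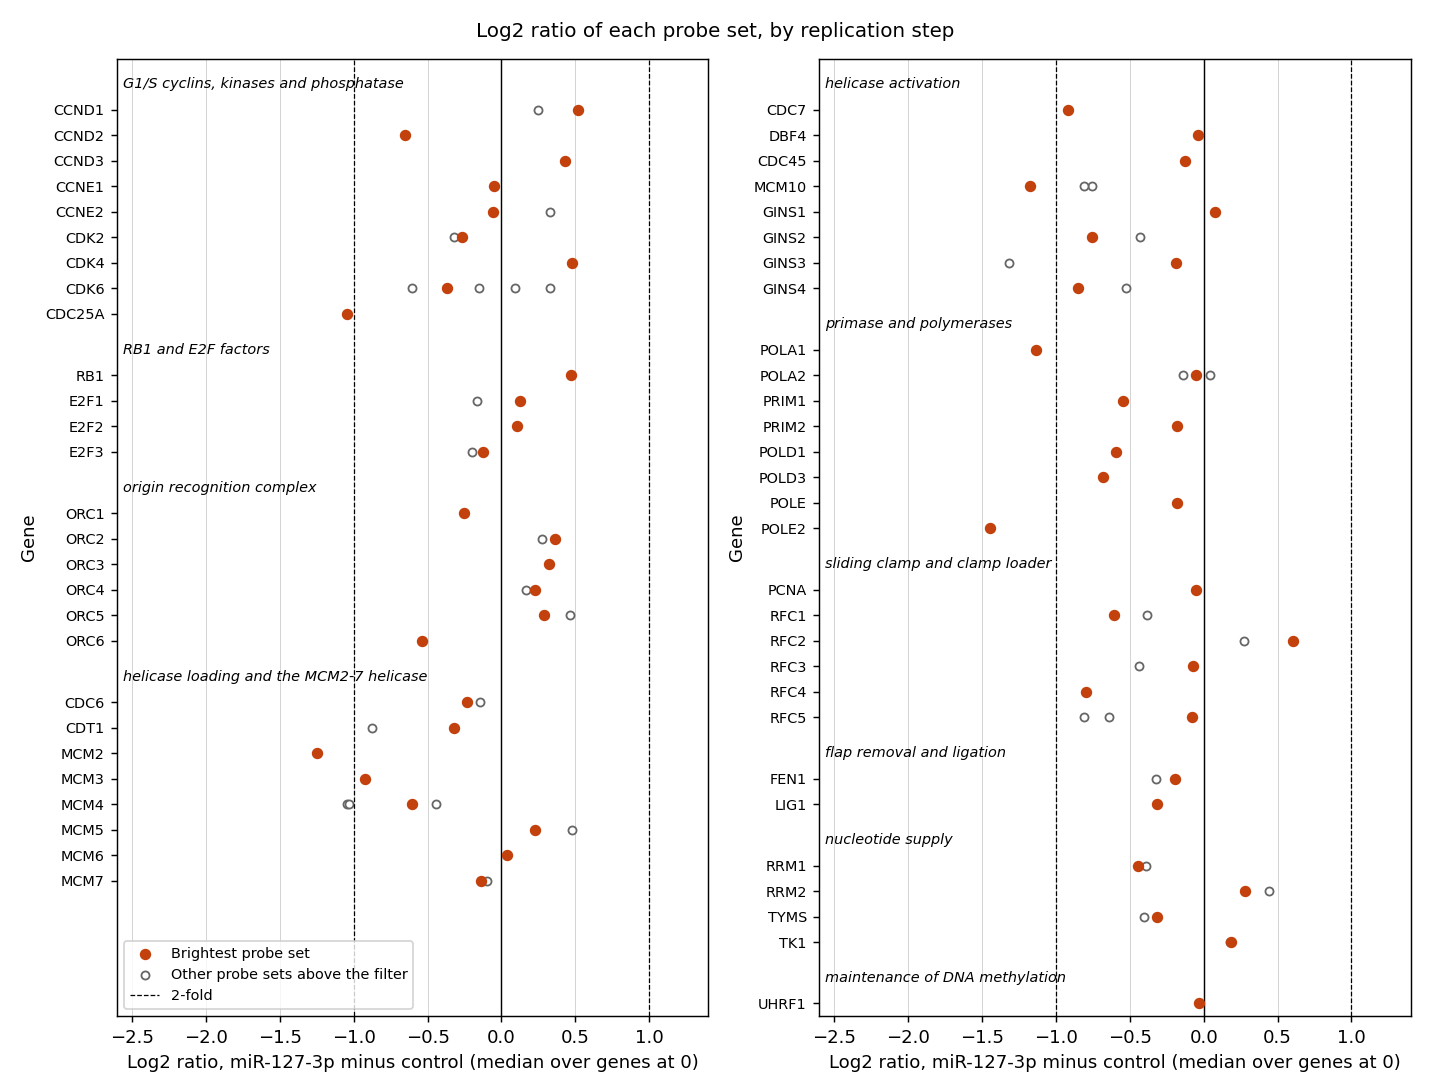
Each point is a probe set above the filter, placed by its log2 ratio (miR-127-3p minus control), with the brightest probe set of each gene filled and the others open, and dashed lines mark 2-fold. The filled points of the primase and polymerase genes all lie left of 0, POLA2 by less than the shift of 75th percentile scaling, ORC2 to ORC5 lie right of it, and the subunits of the MCM2-7 helicase and of the RFC loader spread over both sides.

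Strand completion and nucleotide supply differed little. FEN1, the nuclease that trims flaps between lagging-strand pieces, read 4111 with miR-127-3p against 4672 in control cells, and LIG1, the ligase that joins them, read 425 against 525, log2 ratios of -0.20 and -0.31. The subunits of ribonucleotide reductase, which makes deoxynucleotides, lay on opposite sides. RRM1 read 3507 with miR-127-3p against 4738 in control cells, a ratio of -0.45 with a second probe set at -0.39, and RRM2 read 5769 against 4702, a ratio of 0.28 with a second probe set at 0.44. TYMS, the thymidylate synthase, read 6909 with miR-127-3p against 8511 in control cells at -0.31, and TK1, the thymidine kinase, read 1219.6 against 1065 at 0.18. UHRF1, which helps to copy DNA methylation behind the fork, was level at 2069 and 2099.

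Agreement of probe sets bore on how far single values can be read. Of 28 genes with several probe sets past the filter, 24 had all of them on the same side of 0, and CCNE2, CDK6, E2F1 and POLA2 had them on both sides. The same count was not made over all genes, so this agreement is not read as particular to these genes. Counting probe sets in place of genes, 8 of 92 were at least 2-fold lower, or 8.70%, beside 8.08% of all 22459, and none was at least 2-fold higher, beside 5.28%. In bulk RNA a smaller share of cells in S phase and less RNA of these genes per cell cannot be told apart.

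Some regulators that act on these genes differed by more than any of the 56. CDKN1A, the p21 inhibitor of cyclin-dependent kinases and a p53 target, read 4535 with miR-127-3p against 945 in control cells and was 4.76-fold higher. Other CDK inhibitors ran the opposite way, with CDKN2A at least 19.0-fold lower and CDKN1C, p57, which read 41.5 against 588, at least 7.03-fold lower against the median of the miR-127-3p array. A second probe set of CDKN1C was nearer to 0, at -1.32 on the log2 scale, and the mean of both was -2.56. CDKN1B, p27, read 2344 with miR-127-3p against 2442 in control cells, a log2 ratio of -0.07. Of 7 listed inhibitors 5 were above the filter, 1 at least 2-fold higher and 2 lower, beside 5.06% higher and 8.67% lower over all genes. Both lower ones were below the median of the miR-127-3p array and passed the filter on mean signal only through their control values. Among genes above the median of both arrays 0 inhibitors were at least 2-fold lower, beside 6.05% of all such genes, so the count of 2 is no support for a difference of the list. MYC, a transcription factor that promotes entry into S phase, read 578 with miR-127-3p against 6931 in control cells and was 12.1-fold lower. Like CDKN1A, MYC had 1 probe set above the filter, so no other could be compared with it. Of 6 genes of its network above the filter MXI1, an antagonist of MYC, was the other one past 2-fold, 2.02-fold lower, and came within 2-fold with 75th percentile scaling or no filter. Of 17 p53 targets 7, or 41.2%, passed 2-fold upward, beside 5.06% of all genes, and none downward, with a median of 0.82, and the 5 highest were CDKN1A, GDF15, FAS, BAX and MDM2, between 2.11-fold and 4.76-fold. These lists were written with earlier results from the same arrays known.

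Other genes of the cell cycle were counted the same way, beside 8.67% lower and 5.06% higher over all genes. Of 33 further fork and S phase genes NPAT, an activator of histone genes, was the single one at least 2-fold lower, at 353 with miR-127-3p against 703 in control cells, 2.01-fold and so at the line, and none was at least 2-fold higher. Their median was -0.22, and 21 of 33 had ratios below 0, beside 50.0% of all genes. Of 30 mitotic genes 3, or 10%, were at least 2-fold lower, near the 8.67% of all genes, and none higher. The median of the mitotic genes was 0.03, and 14 of 30 were below 0, beside the same 50.0%. CDK1, the mitotic kinase, read 3125 with miR-127-3p against 8629 in control cells, 2.78-fold lower with all 3 probe sets between -1.48 and -1.15. AURKB, a kinase of chromosome segregation, was 2.11-fold lower and MKI67, the Ki-67 proliferation marker, 2.06-fold lower. Both came within 2-fold with 75th percentile scaling, and MKI67 also with a pseudocount of 32 or the mean of probe sets. The 4 probe sets of MKI67 above the filter lay between -1.45 and -0.45. Among 9 other pocket proteins, E2F and DP factors RBL1, the p107 relative of RB1, read 456 with miR-127-3p against 186 in control cells, 2.42-fold higher with a second probe set at 0.50, and none was at least 2-fold lower. The medians of that list and of the mitotic genes took both signs across alternatives.

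**Figure D4:**
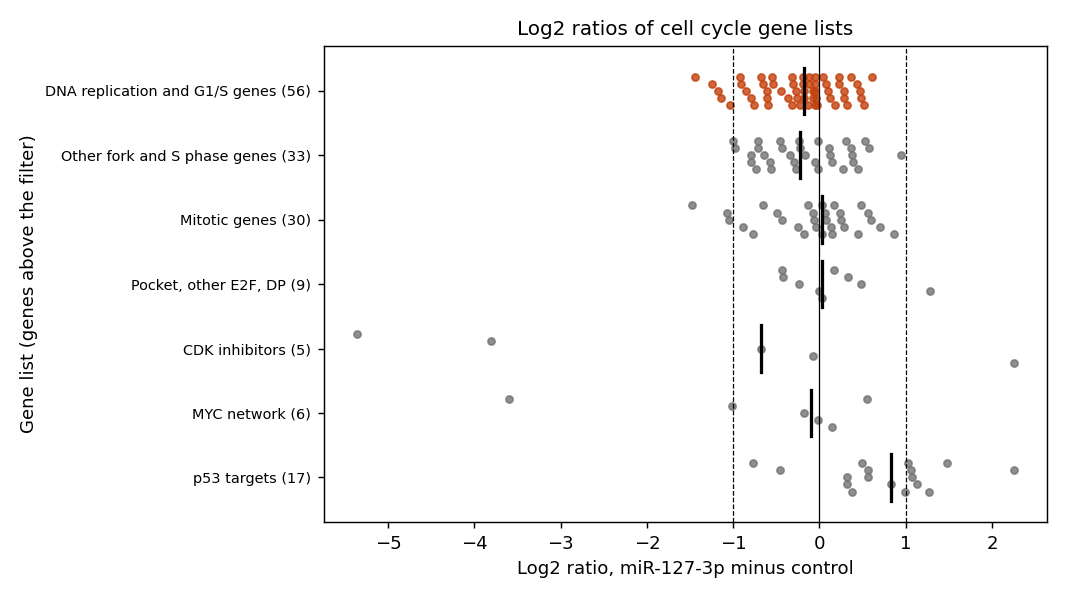
Each point is a gene above the filter, placed by its log2 ratio (miR-127-3p minus control), in rows for the 56 replication genes and 6 other lists, with a bar at each list's median and dashed lines at 2-fold. The medians of the replication genes and of the other fork and S phase genes are -0.18 and -0.22, that of the p53 targets is 0.82, and CDKN2A, CDKN1C and MYC lie farthest to the left.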

How the data were processed

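Probe set signals came from 2 Affymetrix arrays, 1 of LN229 cells with the miR-127-3p plasmid and 1 with the plasmid alone. Biotin-labelled cRNA was made from Trizol-extracted total RNA with a 3′ labelling kit, per the labels' protocols. The deposited values are signal intensity on a linear scale, already brought to a common level by the authors to judge from equal means of 499.9 after trimming 2% at each end. For software and background correction the sources used here give nothing. The platform annotation named 1 gene symbol for 41091 of 54613 non-control probe sets, and symbols were updated through Entrez identifiers with a RefSeq table of GRCh38.p14.

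Signals became log2(signal + 1). Probe sets with a mean log2 value above the median of non-control probe sets were kept, the brightest stood for its gene, and the median ratio over genes, 0.01, was subtracted. Folds were taken from these log2 values, which understates changes of low genes. For a gene under the median of 1 array, the fold is a lower limit against that median, a floor chosen here. With 1 array per group no test was run, and genes past 2-fold were counted. The number of arrays limits the precision. The 56 genes, the lists and the rule for named genes (all 56, CDKN1A, MYC, and up to 5 genes past 2-fold per direction of each other list) were chosen with earlier results of these data known. Alternatives were 1.5-fold and 3-fold thresholds, no filter or a 75th percentile filter, the deposited scale, quantile, loess (span 0.3) and 75th percentile scaling, pseudocounts of 16 and 32, the mean of probe sets, probe sets without a cross-match suffix, a floor at each array's median, and, added after the data were seen, genes above the median of both arrays. The code was tested on simulated arrays. Python 3.11.15, numpy 2.4.6, pandas 2.3.3, statsmodels 0.14.6 and matplotlib 3.10.9 were used.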

Additional observations from a re-analysis of the deposited data

How the results depend on the processing

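The median log2 ratio of the 56 genes stayed below 0 under every alternative run, between -0.19 and -0.10. No median of a replication step moved by over 0.41, the spread of probe sets. That spread is wide beside most of these medians, so staying within it is a weak check. The median of helicase activation ran from -0.64 to -0.17, and that of the clamp and its loader from -0.38 to 0.01. A changed threshold leaves single values as they were. Of 646 single values of the 56 genes under the other alternatives, where a value could be had, 643 moved by less than that spread. Those of GINS3 and RFC5 with the mean of probe sets, -0.75 and -0.51, and of MCM10 without suffixed probe sets, -0.74, moved by more. Most of these alternatives keep the chosen probe set of a gene, which limits beforehand how far its value can move. Across scalings 9 genes with ratios near 0 took both signs, CCNE1, CCNE2, DBF4, MCM6, PCNA, POLA2, RFC3, RFC5 and UHRF1. With 75th percentile scaling the medians of the G1/S cyclins and kinases, the clamp and its loader, and nucleotide supply were 0.03, 0.01 and 0.02. Under that scaling the median of all genes was 0.08, so these medians lay below it, as did that of the 56 genes at -0.10.

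Counts past a threshold moved more. At 1.5-fold 15 of the 56 genes were lower and 1 higher, as were 8 and 1 of the other fork and S phase genes, 6 and 3 of the mitotic genes, and 1 p53 target was lower. Over all genes 18.1% were lower and 14.5% higher at that size. At 3-fold 0 of the 56 were lower, with 0 lower fork and S phase genes, 0 lower mitotic genes, 0 higher pocket and E2F genes, 1 lower MYC network gene and 1 higher p53 target. Over all genes 3.94% were lower and 1.57% higher at 3-fold. Of the 56 genes 44 remained with the 75th percentile filter and 2 were lower, beside 4.95% of all genes. Without suffixed probe sets 42 remained and 3 were lower, beside 8.86%. The count of lower fork and S phase genes, 1, rests on NPAT. It was 0 with no filter, the deposited scale, quantile or 75th percentile scaling, either larger pseudocount or no suffixed probe sets. Between 7.53% and 17.2% of all genes were lower at those settings. The count was 2, with HELLS, with the 75th percentile filter or loess, beside 4.95% and 8.51% of all genes. MCM9 made the higher count 1 with quantile or 75th percentile scaling. With 75th percentile scaling 1 mitotic gene and 1 MYC network gene were lower, beside 7.53% of all genes. Without suffixed probe sets CDKN1A, MYC, GDF15, FAS and BAX had no value and so left their lists. Then 1 MYC network gene was lower, 2 p53 targets were higher and 0 CDK inhibitors were, beside 8.86% and 5.59% of all genes. RBL1 was the higher pocket gene, and the count was 0 with the 75th percentile filter or the mean of probe sets. Lower CDK inhibitors numbered 0 with the 75th percentile filter and among genes above the median of both arrays. The median of that list of at most 7 genes was -0.68 and came to -2.21 with no filter, 1.05 with the 75th percentile filter, -1.97 and -1.69 with pseudocounts of 16 and 32, -3.79 without suffixed probe sets and 1.09 above both medians, so no direction is read from it. The MYC network median was -0.10, and -0.57 with no filter and -0.64 with the 75th percentile filter. No paired analysis was possible because each group has 1 array.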

Other observations

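Of the 115 probe sets 23 were below the filter, and some differed widely at signals near or below the array medians of 83.3 with miR-127-3p against 93.9 in control cells. A probe set of CDK6 read 4.30 with miR-127-3p against 86.6 in control cells, and one of RFC3 read 6.75 against 87.2. The brightest probe sets of these genes had log2 ratios of -0.37 and -0.07. Both were chosen after their values were seen.

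Among the other fork and S phase genes, the genes nearest to 2-fold besides NPAT were HELLS, a chromatin remodeller, at 626 with miR-127-3p against 1227 in control cells, a log2 ratio of -0.98, and MCM9, a relative of the MCM2-7 subunits that acts in repair, at 222 against 114, a ratio of 0.95. GMNN, geminin, which blocks CDT1 after origins have fired, read 2053 with miR-127-3p against 3532 in control cells, a ratio of -0.79. RPA1 and RPA3, subunits of the protein that coats single-stranded DNA at the fork, lay on opposite sides at -0.64 and 0.58. These genes too were picked after their values were seen.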
